A study of Mus musculus with 15 samples.

Results

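The 10 genes described here encode receptors and effectors of innate immune sensing: the Toll-like receptors Tlr2, Tlr3, Tlr4, Tlr7 and Tlr9, the inflammasome sensor Nlrp3, the inflammatory caspases Casp1 and Casp4, and the cytokines Il1b and Il18. They were picked by gene name, and all 10 were found among the 32479 genes of the deposited FPKM table and the 55401 genes of the count matrix. RNA of submandibular glands, a pair of salivary glands below the jaw, was sequenced in 15 mouse libraries, 5 from each of 3 groups. The SJQYD group were NOD/LTJ mice that received a treatment known from the labels by those letters alone, the model group were NOD/LTJ mice left untreated, and the control group were untreated ICR mice. NOD mice are an inbred strain prone to autoimmune inflammation of the salivary and lacrimal glands, and ICR mice are an outbred stock. All 3 groups carry the genotype label WT, and the labels used here give no age, sex, dose or hour of collection. The title of the series names Sjögren's syndrome, an autoimmune disease of these glands. Since strain and disease differ together between model and control, they cannot be told apart in that comparison.

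Toll-like receptors are membrane proteins that recognise microbial molecules and, in some settings, the body's own nucleic acids. Tlr2 and Tlr4 act at the cell surface on lipoproteins and lipopolysaccharide, while Tlr3, Tlr7 and Tlr9 act in endosomes on double-stranded RNA, single-stranded RNA and unmethylated CpG DNA. Inflammasomes are cytosolic complexes in which a sensor such as Nlrp3 activates caspase-1, which matures interleukin-1β and interleukin-18; mouse caspase-11, the product of Casp4, responds to cytosolic lipopolysaccharide and opens a non-canonical branch. In Sjögren's syndrome these pathways are studied in the gland epithelium and in the macrophages, dendritic cells and B cells that enter the gland.

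Of the 9 genes that passed the filter on low counts, Tlr7, Casp1 and Casp4 were higher in model glands than in control glands, by 3.03, 2.36 and 2.66-fold. In SJQYD glands no gene of the group differed from model glands at an adjusted p under 0.05, and Casp4 alone was higher than in control glands. Casp1 and Casp4 lie side by side on chromosome 9, so their promoters are shown here, with that of Tlr2, a receptor not called in any comparison, for contrast. The windows are RefSeq sequence of GRCm38.p6, 5′ to 3′ on the gene's strand, from 250 bases before to 50 bases after the annotated start. Capitals mark matches on either strand to 1 of 6 motifs. Casp1 (chr9:5298267-5298566, plus strand) held the E-box CACGTG, and Casp4 (chr9:5308599-5308898, plus strand) held the NF-kB motif GGGNNTTCC in 2 places. Tlr2 (chr3:83841559-83841858, minus strand) held the NF-kB motif on both strands at overlapping positions and the 6 letters AGGTCA.
Casp1: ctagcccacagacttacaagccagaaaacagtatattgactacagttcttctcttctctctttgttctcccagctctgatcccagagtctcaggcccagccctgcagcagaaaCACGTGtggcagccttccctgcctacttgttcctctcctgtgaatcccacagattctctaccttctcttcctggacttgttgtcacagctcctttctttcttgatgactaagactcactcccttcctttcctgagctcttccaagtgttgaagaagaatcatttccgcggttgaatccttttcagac
Casp4: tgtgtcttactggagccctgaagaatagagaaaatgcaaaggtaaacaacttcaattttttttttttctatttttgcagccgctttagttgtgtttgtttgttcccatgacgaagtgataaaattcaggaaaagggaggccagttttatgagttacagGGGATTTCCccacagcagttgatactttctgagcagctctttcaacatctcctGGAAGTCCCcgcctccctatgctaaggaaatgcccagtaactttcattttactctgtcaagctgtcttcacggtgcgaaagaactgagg
Tlr2: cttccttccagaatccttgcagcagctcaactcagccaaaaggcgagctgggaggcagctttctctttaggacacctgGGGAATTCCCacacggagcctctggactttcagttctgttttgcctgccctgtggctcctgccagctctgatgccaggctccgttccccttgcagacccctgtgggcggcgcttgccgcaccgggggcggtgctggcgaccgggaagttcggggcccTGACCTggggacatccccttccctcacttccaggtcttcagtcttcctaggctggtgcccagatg

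Promoter entries were at hand for 8 of the 10 genes, in 10 windows, and Tlr4 and Tlr7 had none. The Casp1 match lay 137 to 132 bases before the start, and CACGTG stood in 7.15% of all 32851 windows of this length. The Casp4 matches lay 92 to 84 and 39 to 31 bases before the start. The NF-kB motif was held by windows of Casp4, Nlrp3 and Tlr2, 3 of the 8 genes, against 5.82% of all windows. These were 5 of the 10 windows, but the 2 of Casp4 overlap and hold the same matches. Of these 3 genes only Casp4 was called in a comparison. The ISRE core GAAANNGAA, held by 8.56% of all windows, and the GAS motif TTCNNNGAA, held by 8.3%, were in none of the 10. The PU.1 motif GAGGAAG was in 1 window of Nlrp3 and in that of Tlr9, against 13.6% of all windows, and AGGTCA was in those of Tlr2 and Tlr9, against 16.3%. A match describes letters in a window and not a bound site.

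The libraries held 39510018 to 62335235 counts in the SJQYD group, 52746925 to 68694263 in the model group and 54836440 to 63101584 in the control group. Levels are given as normalised read counts (CPM, scaled to the TMM-adjusted library total), on which 3 counts equal 0.029 to 0.084 CPM. A gene was called when its Benjamini-Hochberg adjusted p from edgeR's quasi-likelihood test over 18136 genes was under 0.05. Mucl2, a mucin-like product of the submandibular gland, took 15.5% to 46.4% of counts in SJQYD, 25.8% to 45.6% in model and 42.2% to 53.8% in control libraries. Amy1, Bpifa2, Smr3a and Chia1, products of the adjoining parotid gland, took 6.5% of counts in SJQYD 1, 16% in model 3 and 4.17% in control 2. Results are therefore also given without these 3 libraries where a call was lost. SJQYD 3 had 1.01 CPM of the X-inactivation transcript Xist, against 162 to 270 in the other libraries, and the clock gene Dbp was at 136 to 235 CPM in SJQYD, 1.47 to 18.0 in model and 0.469 to 6.93 in control glands. Their part in the results was not tested.

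**Figure D1:**
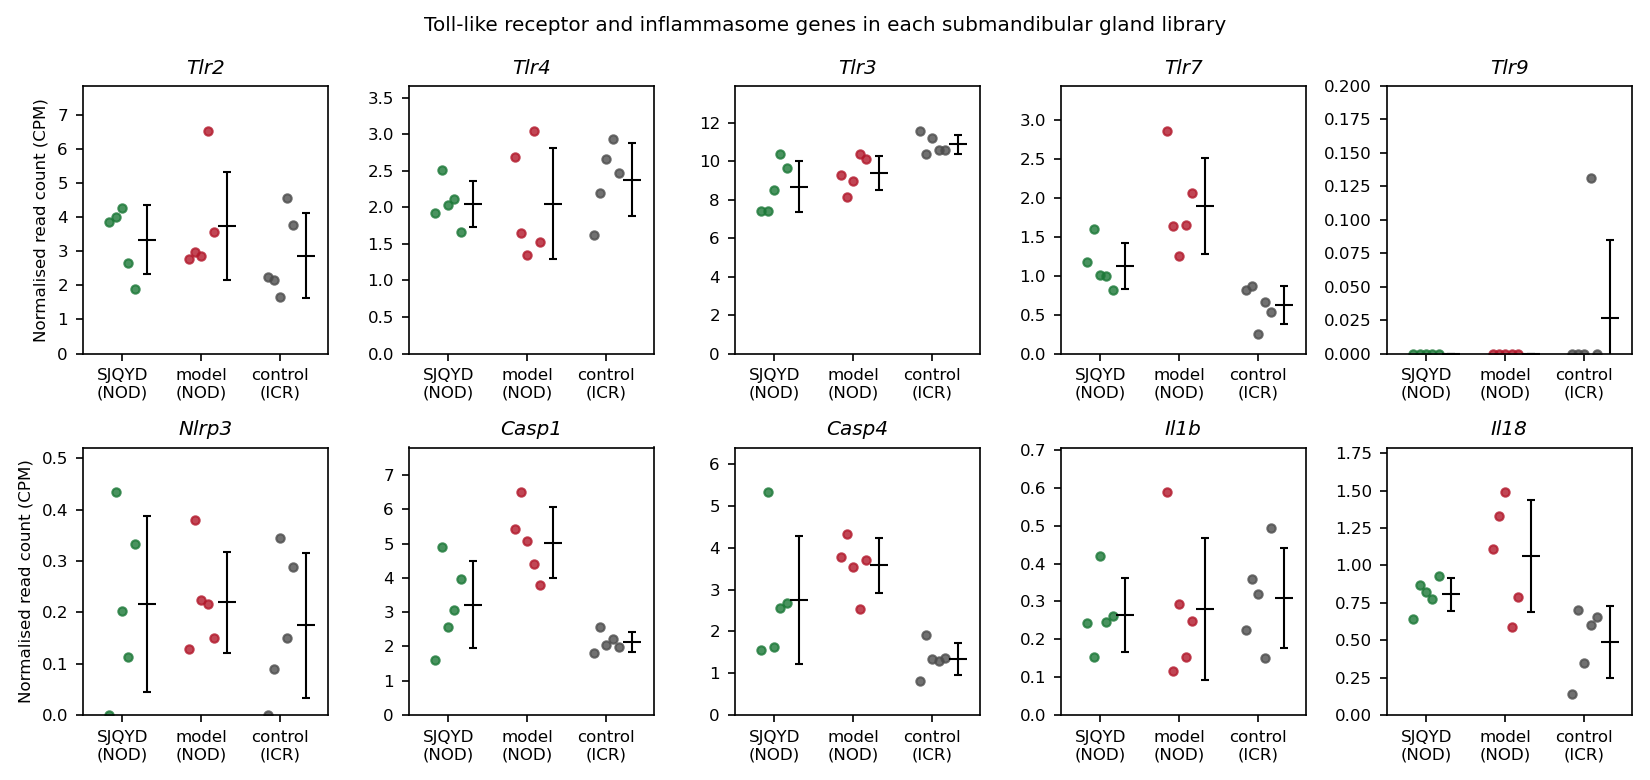
Normalised read count (CPM, vertical axes, each starting at 0) of the 10 genes in each of 15 submandibular gland libraries, with SJQYD (green), model (red) and control (grey) from left to right in every panel. Points are libraries and black bars are means ± SD (n = 5 per group). The 5 model libraries lie above the 5 control libraries for Tlr7, Casp1 and Casp4, and Tlr9 is above 0 in control 4 only.

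The surface receptors Tlr2 and Tlr4 were not called in any comparison. Tlr2 (ENSMUSG00000027995, chromosome 3, 83836272 to 83841767, minus strand, GRCm38) had 3.86, 3.99, 4.27, 2.66 and 1.9 CPM in SJQYD libraries 1 to 5, 2.76, 2.98, 2.86, 6.53 and 3.55 in model libraries and 2.24, 2.14, 1.65, 4.56 and 3.76 in control libraries. Model 4 and control 4 were the highest of their groups, and the ranges of all 3 groups overlapped. The log2 fold change of Tlr2 was 0.38 ± 0.32 (SE) in model against control (edgeR, adjusted p = 0.531), −0.16 ± 0.32 in SJQYD against model (adjusted p = 0.865) and 0.21 ± 0.32 in SJQYD against control (adjusted p = 0.724). Leaving out 1 library moved the value of model against control between 0.08 (without model 4) and 0.61 (without control 4), and that of SJQYD against model to 0.14 without model 4, none of them called. In model against control, 2 SE on either side reached −0.26 and 1.02. Under other settings Tlr2 reached 0.80 in model and 0.86 in SJQYD against control, also without a call. In FPKM it averaged 1.18 ± 0.606 in SJQYD, 1.13 ± 0.349 in model and 0.66 ± 0.337 in control glands (SD, n = 5 each). Tlr4 (ENSMUSG00000039005, chromosome 4, 66827584 to 66930284, plus strand) had 1.92, 2.51, 2.03, 2.11 and 1.66 CPM in SJQYD, 2.69, 1.65, 1.35, 3.05 and 1.52 in model and 1.62, 2.20, 2.66, 2.93 and 2.47 in control libraries. Tlr4 averaged 2.05 ± 0.313 CPM in SJQYD, 2.05 ± 0.765 in model and 2.38 ± 0.498 in control glands (SD, n = 5 each), with overlapping ranges. Its log2 fold change was −0.21 ± 0.25 in model against control (adjusted p = 0.675), 0.00 ± 0.25 in SJQYD against model (2 SE on either side reaching −0.5 and 0.5) and −0.22 ± 0.25 in SJQYD against control (adjusted p = 0.642).

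Of the endosomal receptors Tlr7 was called, Tlr3 was not, and Tlr9 was hardly detected. Tlr7 (ENSMUSG00000044583, chromosome X, 167304929 to 167330558, minus strand), the sensor of single-stranded RNA, had 1.17, 1.60, 1.01, 1.0 and 0.821 CPM in SJQYD libraries, 2.86, 1.64, 1.25, 1.65 and 2.06 in model libraries and 0.812, 0.864, 0.246, 0.657 and 0.535 in control libraries. Every model library was above every control library, and 3 of the 5 SJQYD libraries lay between those 2 groups. Tlr7 rose in model against control glands by 1.60 ± 0.34 on the log2 scale (edgeR, adjusted p = 0.0137), and the call held when any 1 library was left out, with an adjusted p of 0.00837 to 0.0395. It was lost with limma on the deposited log2(FPKM + 1) over all genes (0.38 on that scale, adjusted p = 0.0512). SJQYD against model gave −0.76 ± 0.33 for Tlr7, which did not pass (unadjusted p = 0.0333, adjusted p = 0.253), with 4 of 5 SJQYD libraries below all model libraries. SJQYD against control gave 0.84 ± 0.33 (adjusted p = 0.112), with 4 of 5 SJQYD libraries above all control libraries. On library totals this difference was 1.44 and was called (adjusted p = 0.0231), with the median of all genes at 0.63. SJQYD 3, the library with 1.01 CPM of Xist, had a Tlr7 level inside the range of its group.

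Tlr3 (ENSMUSG00000031639, chromosome 8, 45395665 to 45411080, minus strand), the sensor of double-stranded RNA, varied least of the 10 genes. Tlr3 had 7.42, 7.41, 8.49, 10.4 and 9.66 CPM in SJQYD, 9.27, 8.15, 9.0, 10.4 and 10.1 in model and 11.6, 10.4, 11.2, 10.6 and 10.6 in control libraries. All 5 model libraries and 4 SJQYD libraries were below every control library, by small margins. The log2 fold change of Tlr3 was −0.21 ± 0.12 in model against control (adjusted p = 0.311), −0.11 ± 0.12 in SJQYD against model (adjusted p = 0.713) and −0.32 ± 0.12 in SJQYD against control (unadjusted p = 0.0142, adjusted p = 0.0866), none of them called. Its sign turned with the scaling: on library totals without TMM factors the values were 0.28 for model and 0.24 for SJQYD against control, while the median of all genes also moved, to 0.52 and 0.63. The ratio of Tlr7 to Tlr3 CPM within a library does not depend on scaling. That ratio was 0.085 to 0.216 in SJQYD, 0.139 to 0.309 in model and 0.022 to 0.0832 in control libraries. Neither NOD group overlapped with control, SJQYD only narrowly (0.085 against 0.0832), and the level of Tlr3 also enters this ratio. The ratio of Tlr7 to Tlr4 was 0.473 to 0.638 in SJQYD, 0.54 to 1.36 in model and 0.0926 to 0.5 in control libraries. By that ratio SJQYD overlapped with control and model did not. Tlr9 (ENSMUSG00000045322, chromosome 9, 106222598 to 106226883, plus strand), the sensor of CpG DNA, had 7 counts in control 4, or 0.131 CPM, and 0 counts in the other 14 libraries, and was not tested. A count of 0 allows up to 3 counts, or 0.029 to 0.084 CPM, so differences of Tlr9 below that floor could not be detected.

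The inflammasome sensor Nlrp3 (ENSMUSG00000032691, chromosome 11, 59541568 to 59566956, plus strand) was near the limit of detection. Nlrp3 had 0, 0.434, 0.202, 0.113 and 0.332 CPM in SJQYD, 0.129, 0.380, 0.223, 0.216 and 0.149 in model and 0, 0.090, 0.345, 0.150 and 0.288 in control libraries, from 0 to 26 counts each. Nlrp3 averaged 0.216 ± 0.172 CPM in SJQYD, 0.219 ± 0.0985 in model and 0.175 ± 0.141 in control glands (SD, n = 5 each), with overlapping ranges. The log2 fold change of model against control was 0.32 ± 0.92 (adjusted p = 0.881), that of SJQYD against model −0.04 ± 0.91 (adjusted p = 0.99) and that of SJQYD against control 0.28 ± 0.93 (adjusted p = 0.885). An interval of 2 SE on either side ran from −1.52 to 2.16 for model against control, so that a 2-fold change either way could not be seen at this depth.

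Both caspases rose in model glands. Casp1 (ENSMUSG00000025888, chromosome 9, 5298508 to 5307290, plus strand), the protease that matures interleukin-1β and interleukin-18, had 1.59, 4.90, 2.56, 3.06 and 3.97 CPM in SJQYD, 5.41, 6.5, 5.07, 4.39 and 3.78 in model and 1.82, 2.56, 2.04, 2.23 and 1.97 in control libraries. All model libraries were above all control libraries, and the SJQYD libraries spread over both ranges. Casp1 rose in model against control by 1.24 ± 0.25 on the log2 scale (edgeR, adjusted p = 0.0114), and this call held without any 1 library (adjusted p 0.00404 to 0.0379). The difference in SJQYD against model was −0.65 ± 0.25 (unadjusted p = 0.018, adjusted p = 0.188), with 3 of 5 SJQYD libraries below all model libraries, and it did not pass. In SJQYD against control it was 0.59 ± 0.25 (edgeR, adjusted p = 0.14). It passed on library totals (1.07, adjusted p = 0.0192), where the median of all genes was at 0.63. Limma on genes with at least 0.5 FPKM also called it, at 0.42 on log2(FPKM + 1) (adjusted p = 0.0394) and 0.91 on log2(FPKM + 0.1) (0.0191). The median of all genes in these 2 fits was 0.33 and 0.54. On TMM-scaled counts it passed without SJQYD 1 (0.77, edgeR, adjusted p = 0.0351), with 0.0351 to 0.362 over all fits without 1 library. It also passed without the 3 libraries rich in parotid transcripts (0.83, adjusted p = 0.0378).

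Casp4 (ENSMUSG00000033538, chromosome 9, 5308828 to 5336783, plus strand), which encodes caspase-11, starts 1538 bases beyond the end of Casp1. Casp4 had 1.55, 5.33, 1.63, 2.57 and 2.67 CPM in SJQYD, 3.78, 4.32, 3.53, 2.54 and 3.71 in model and 0.812, 1.91, 1.33, 1.28 and 1.36 in control libraries. SJQYD 2 was the highest of all 15 libraries, the model libraries were all above the control libraries, and 3 SJQYD libraries were. Casp4 rose in model against control by 1.41 ± 0.32 (edgeR, adjusted p = 0.0186). The call ended narrowly without control 1 (1.28, adjusted p = 0.0509) or model 2 (1.34, adjusted p = 0.0527), with adjusted p from 0.00735 over the fits that left out 1 library. SJQYD against model gave −0.38 ± 0.31 (adjusted p = 0.602). Casp4 rose in SJQYD against control by 1.03 ± 0.32, or 2.04-fold (adjusted p = 0.0452), and this call held in 4 of 15 fits that left out 1 library. It was lost without SJQYD 2 (0.65, adjusted p = 0.148), SJQYD 4 or 5, control 1, 3, 4 or 5, or model 1, 2, 3 or 5, with adjusted p of 0.0516 to 0.148. It was also lost with voom (adjusted p = 0.0818), with only the 2 groups compared (0.084) and on FPKM over all genes (0.0746). The ratio of Casp1 to Casp4 CPM was 0.919 to 1.57 in SJQYD, 1.02 to 1.73 in model and 1.34 to 2.24 in control libraries. These ranges overlapped. Casp12, a further inflammatory caspase gene 8.6 kb beyond Casp4, changed by 0.61 ± 0.47 in model against control (adjusted p = 0.481) and was not called.

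Of the cytokines that caspase-1 matures, Il1b was low, with a median of 0.102 FPKM over the 15 libraries. Il18, at a median of 0.616 FPKM, was near Casp4 at 0.546. Il1b (ENSMUSG00000027398, chromosome 2, 129364570 to 129371139, minus strand), encoding interleukin-1β, had 0.242, 0.152, 0.419, 0.245 and 0.262 CPM in SJQYD, 0.589, 0.117, 0.293, 0.154 and 0.248 in model and 0.224, 0.360, 0.320, 0.150 and 0.494 in control libraries, or 7 to 41 counts each. The 3 ranges overlapped, and the log2 fold change was −0.14 ± 0.54 in model against control (adjusted p = 0.91), −0.08 ± 0.53 in SJQYD against model (adjusted p = 0.969) and −0.23 ± 0.54 in SJQYD against control (adjusted p = 0.836). The antisense gene Il1bos overlaps Il1b and had 379 counts over the 15 libraries, against 87 of Il1b in SJQYD, 95 in model and 73 in control libraries. The library kit keeps strand, but counting by strand is not given in the sources used here, so part of these reads could belong to either gene. Il1a, the neighbour gene 54.6 kb away that encodes interleukin-1α, was not called either (−0.27 ± 0.60 in model against control, adjusted p = 0.838).

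Il18 (ENSMUSG00000039217, chromosome 9, 50554827 to 50581840, plus strand), encoding interleukin-18, had 0.639, 0.867, 0.823, 0.774 and 0.926 CPM in SJQYD, 1.11, 1.33, 1.49, 0.585 and 0.792 in model and 0.140, 0.702, 0.345, 0.601 and 0.658 in control libraries. In both NOD groups 4 of 5 libraries were above every control library, and model 4 and SJQYD 1 were not. The log2 fold change was 1.10 ± 0.39 in model against control (unadjusted p = 0.0112, adjusted p = 0.106), −0.40 ± 0.38 in SJQYD against model (adjusted p = 0.675) and 0.70 ± 0.39 in SJQYD against control (adjusted p = 0.263). None of these passed on the counts. On the authors' FPKM values, which carry no TMM factor, limma called Il18 in model against control among genes of at least 0.5 FPKM (adjusted p = 0.026 on log2(FPKM + 1)), where the median of all genes was at 0.28. The same fits called Il18 in SJQYD against control (adjusted p = 0.045 on log2(FPKM + 1) and 0.0307 on log2(FPKM + 0.1)), with the median of all genes at 0.33 and 0.54. Over all alternatives the adjusted p of Il18 in model against control ran from 0.0248 to 0.217. Il18 overlaps Bco2 on the other strand, a gene with 332 counts in all.

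**Figure D2:**
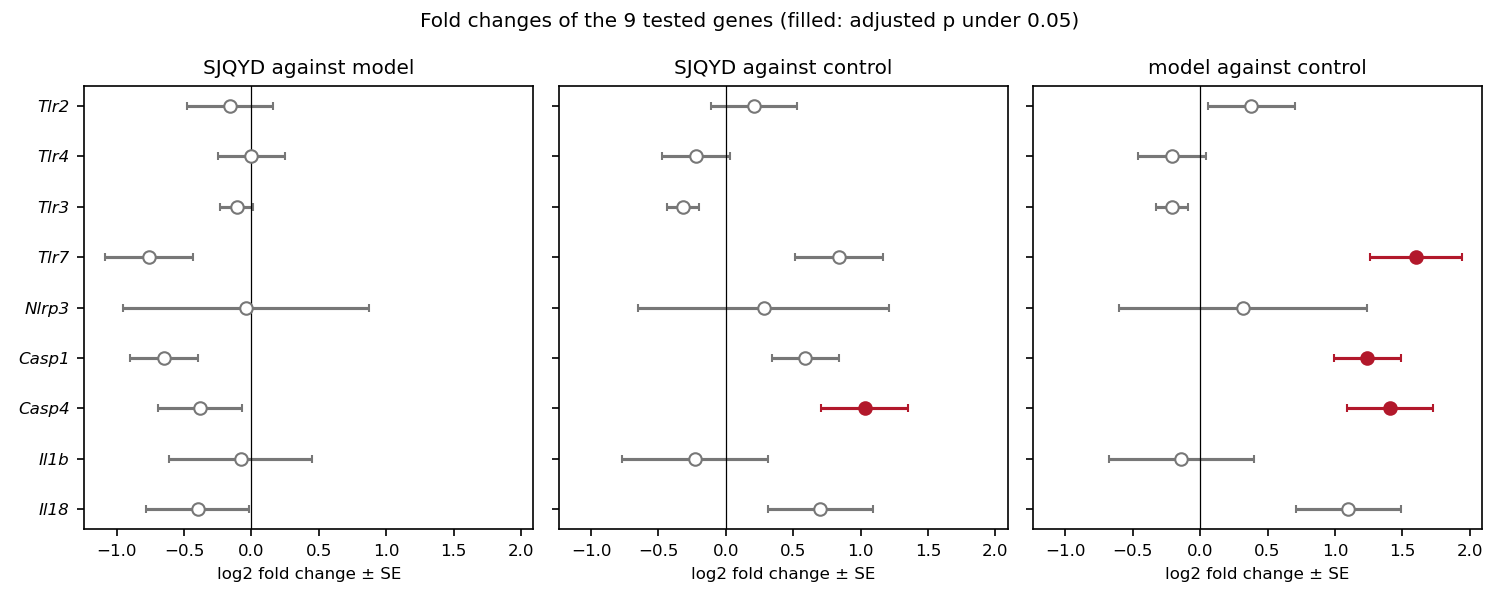
Log2 fold changes (horizontal axis, bars ± SE) of the 9 tested genes in SJQYD against model, SJQYD against control and model against control, from left to right. Filled red points have an adjusted p under 0.05: Tlr7, Casp1 and Casp4 in model against control, Casp4 in SJQYD against control and none in SJQYD against model.

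Counted over the group, 3 of 9 tested genes rose in model against control and none fell, while 2.57% of all 18136 genes tested rose and 2.5% fell. The same 3 had every model library above every control library, as had 3.05% of all genes, and Tlr3 had every model library below, as had 2.71%. The median log2 fold change was 0.38 for the 9 genes and 0.03 for all genes. Between SJQYD and model glands 0 of 9 were called by edgeR, 0 by DESeq2 and 0 by voom, and 2, Tlr7 and Casp1, had an unadjusted p under 0.05. Of all genes 1.91% rose and 0.838% fell in that comparison. The 9 log2 fold changes of SJQYD against model were −0.76 to 0.00, 8 of them below 0, with a median of −0.16 against −0.03 for all genes. In SJQYD against control 1 of 9 rose and none fell, against 5.22% and 5.9% of all genes, and the median was 0.28 against 0.04. Each of the 3 groups enters 2 of these comparisons, which are therefore not independent.

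Since CPM does not account for length, levels of different genes were set side by side in FPKM, the authors' values per gene length. Over the 15 libraries the median was 1.53 FPKM for Tlr3, 0.957 for Tlr2, 0.8 for Casp1, 0.616 for Il18, 0.546 for Casp4, 0.298 for Tlr4, 0.243 for Tlr7, 0.102 for Il1b, 0.0417 for Nlrp3 and 0 for Tlr9. Tlr3 held rank 1 to 3 in every library and Nlrp3 rank 8 to 10. Neighbours in this order overlapped: Tlr2, Casp1, Il18 and Casp4 ranged over 0.328 to 2.01, 0.297 to 2.0, 0.0659 to 1.46 and 0.108 to 1.4 FPKM. By group, Tlr7 averaged 0.285 ± 0.127 FPKM in SJQYD, 0.443 ± 0.197 in model and 0.105 ± 0.0531 in control glands, and Casp1 averaged 0.972 ± 0.328 in SJQYD, 1.54 ± 0.474 in model and 0.468 ± 0.155 in control glands (SD, n = 5 each).

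The wider pathway was read from 6 lists of related genes, 90 of which were tested. In model against control 8 of the 90 rose and 1 fell, or 8.89% and 1.11%, against 2.57% and 2.5% of all genes. None of 6 other Toll-like receptors was called, and the largest difference was that of Tlr1, the partner of Tlr2, at 0.62 ± 0.22 (20.2 ± 3.52 CPM in model and 13.1 ± 1.92 in control glands, SD, n = 5 each, adjusted p = 0.112). Among 16 partners and chaperones, Unc93b1 and Pld4 rose. Unc93b1, the chaperone that carries endosomal Toll-like receptors out of the endoplasmic reticulum, averaged 29.7 ± 6.0 CPM in model and 19.3 ± 3.58 in control glands (0.62 ± 0.15, adjusted p = 0.0261). Its call was lost without control 1, 3 or 4 or model 1, 2 or 3 (adjusted p 0.0601 to 0.0766). Pld4, an endosomal exonuclease that limits ligands of Tlr7 and Tlr9, rose by 0.89 ± 0.20 (adjusted p = 0.0209), a call lost without control 1, 3 or 4 or model 2 (adjusted p 0.0509 to 0.0638).

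Of 23 signalling genes 1 rose and 1 fell in model glands. Irf7, the transcription factor that Tlr7 and Tlr9 use for type I interferon, averaged 35.4 ± 9.55 CPM in model and 15.5 ± 6.1 in control glands (SD, n = 5 each) and rose by 1.19 ± 0.28 (adjusted p = 0.0239; 0.0525 to 0.0604 without control 1 or 3 or model 1, 2 or 5). Tirap, the adaptor of Tlr2 and Tlr4, had 7.79, 11.1, 8.13, 13.0 and 9.98 CPM in model and 29.8, 13.7, 18.4, 21.6 and 14.6 in control libraries and fell by 0.97 on the log2 scale (SE 0.19, adjusted p = 0.0105). That call was lost on library totals and in all 3 FPKM fits, with adjusted p up to 0.262. Myd88, the common adaptor, was at 0.20 ± 0.11 (adjusted p = 0.324). Of 20 inflammasome genes Naip2, a receptor for the inner rod protein of bacterial secretion systems, rose by 0.98 ± 0.24 (adjusted p = 0.0278; 0.0511 to 0.0665 without control 3, 4 or 5 or model 3 or 5), with reads that its near-identical Naip copies may share. Pycard, the adaptor that joins Nlrp3 to caspase-1, and Gsdmd, the pore protein cut by both caspases, were not called at 0.21 ± 0.17 (adjusted p = 0.515) and 0.93 ± 0.28 (adjusted p = 0.0631). Aim2, of the same list, was just short of a call at 1.3 ± 0.37 (edgeR, adjusted p = 0.0508).

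In the interleukin-1 family 1 of 11 genes rose: Il18r1, the receptor of interleukin-18, averaged 3.68 ± 0.81 CPM in model and 1.21 ± 0.685 in control glands (SD, n = 5 each), a rise of 1.60 ± 0.39 (adjusted p = 0.0276; 0.0545 to 0.0682 without control 1, 3 or 5 or model 2 or 5). Among 14 cytosolic sensors Ifi204, Ifi203 and Zbp1 rose and none fell. Ifi204, a DNA-binding protein of the interferon-inducible family that also holds Ifi203, rose by 1.15 ± 0.24 (adjusted p = 0.0123), and no omission of 1 library ended its call. Zbp1, a sensor of Z-form nucleic acid, averaged 7.36 ± 4.34 CPM in model and 1.84 ± 0.95 in control glands and rose by 1.99 ± 0.44 (adjusted p = 0.0186; 0.0535 without control 1). Ifi203 rose by 1.21 ± 0.30 (adjusted p = 0.0293; 0.0532 to 0.0724 without control 1, 3, 4 or 5 or model 1, 2 or 5). The count of 9 related genes called depended on single libraries: it was 3 without control 1 or control 3, 4 without model 2, 5 without control 4 or model 5, and 19 without control 2. It was 17 without the 3 libraries rich in parotid transcripts, where Naip2 was lost (adjusted p = 0.0701).

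**Figure D3:**
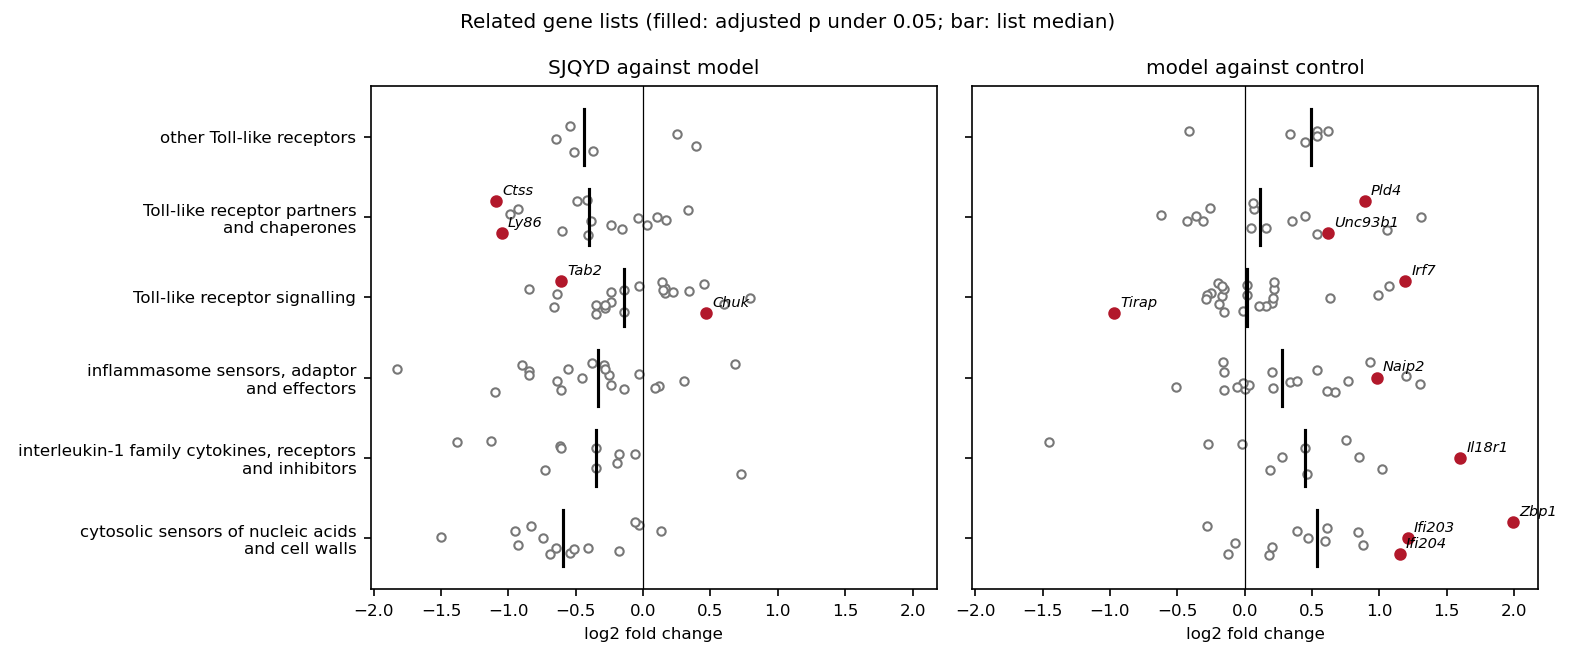
Log2 fold changes (horizontal axis) of 90 related genes in 6 lists (vertical axis), in SJQYD against model on the left and model against control on the right. Each point is a gene, red points have an adjusted p under 0.05, and the black bar is the list median, which in model against control runs from 0.02 for signalling genes to 0.53 for cytosolic sensors and in SJQYD against model from −0.59 for cytosolic sensors to −0.14 for signalling genes.

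Of the 90 related genes 4 were called in SJQYD against model, 1 higher (1.11%, against 1.91% of all genes) and 3 lower (3.33%, against 0.838% of all genes). Ly86, which encodes MD-1, the partner of the Toll-like protein Cd180, averaged 1.72 ± 0.69 CPM in SJQYD and 3.55 ± 0.317 in model glands (SD, n = 5 each) and fell by 1.05 on the log2 scale (SE 0.25, adjusted p = 0.0339). Ctss, an endosomal protease able to cleave Tlr7 and Tlr9, averaged 7.78 ± 1.89 CPM in SJQYD and 16.5 ± 5.29 in model glands and fell by 1.09 (SE 0.25, adjusted p = 0.0274). Tab2, an adaptor of the kinase Map3k7, averaged 33.4 ± 1.67 CPM in SJQYD and 51.0 ± 5.3 in model glands and fell by 0.61 (SE 0.10, adjusted p = 0.00309), a call that no omission of 1 library ended. Chuk, a kinase of the NF-kB pathway, rose by 0.47 ± 0.11 (adjusted p = 0.0222). The call of Ly86 was lost without SJQYD 1, 3, 4 or 5 or model 1, 2, 3 or 5 (adjusted p 0.056 to 0.0895), that of Ctss without SJQYD 1, 3 or 4 or model 1 or 5 (0.0517 to 0.0775) and that of Chuk without SJQYD 4 or model 1 or 2 (0.0563 to 0.0681). The count of 4 became 1 without model 1 or SJQYD 4, 2 without model 5 or SJQYD 1, and 1 without the 3 libraries rich in parotid transcripts. That last fit lost Ly86 (edgeR, adjusted p = 0.143), Ctss (0.0894) and Chuk (0.0644). On library totals and in all 3 FPKM fits none of the 4 was called. Cytosolic sensors had a median of −0.59 in this comparison, with 1 of 14 above 0 and none called.

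In SJQYD against control 6 related genes were called, 2 higher and 4 lower, or 2.22% and 4.44% of the 90. Both shares were below those of all genes, 5.22% and 5.9%. Tab2 averaged 33.4 ± 1.67 CPM in SJQYD and 62.4 ± 6.8 in control glands (SD, n = 5 each) and fell by 0.90 (SE 0.10, adjusted p = 4.72e-05). Ctss fell by 1.01 (SE 0.25, adjusted p = 0.0173). On library totals and in all 3 FPKM fits both calls were lost, with adjusted p up to 0.357 for Tab2 and 0.371 for Ctss. Ticam1, the adaptor of Tlr3 and Tlr4, rose by 0.66 ± 0.18 (adjusted p = 0.0271; 0.0559 to 0.0729 without SJQYD 1 or 5 or control 5). Nod2, a sensor of bacterial muramyl dipeptide, rose by 1.01 ± 0.32 (adjusted p = 0.0495), a call that held in 3 of 15 fits without 1 library: those without control 1, model 2 or model 3. Ifih1, a sensor of long double-stranded RNA, fell by 0.63 (SE 0.20, adjusted p = 0.0495), a call that held in 6 of 15 such fits. Nek7, a kinase that Nlrp3 needs for assembly, fell by 0.40 (SE 0.12, adjusted p = 0.0407), a call that held in 7 of 15 and turned to 0.20 on library totals. In those fits the adjusted p reached 0.142 for Ifih1, lost without SJQYD 1, 2, 3 or 4, control 1, 3 or 5 or model 1 or 2, and 0.114 for Nek7, lost without SJQYD 1, 2, 4 or 5, control 1, 4 or 5 or model 5. The count of 6 became 10 without control 2, 2 without control 5 or SJQYD 1 and 3 without SJQYD 4 or SJQYD 5. Without the 3 libraries rich in parotid transcripts, Ticam1 (edgeR, adjusted p = 0.104), Nod2 (0.0764), Ifih1 (0.0652) and Nek7 (0.0776) lost their calls. Other related genes were called there, so that the count was 5.

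Tlr7, Casp1 and Casp4 are expressed by myeloid cells, so markers of the cells that a gland can hold were summed in each library. In bulk tissue, more cells of a type and more RNA per cell cannot be told apart. The 16 macrophage and monocyte markers summed to 113, 157, 172, 135 and 154 CPM in SJQYD, 257, 207, 206, 234 and 253 in model and 140, 131, 126, 173 and 195 in control libraries. Every model library was thus above every other library. Lyz2 had the highest mean of the 16 and weighs most in this sum, at 44.0 CPM in SJQYD, 83.7 in model and 41.7 in control glands. Of these markers 14 of 16 had a log2 fold change above 0 in model against control, but only Fcgr1 was called (1.01, adjusted p = 0.0161; 0.0519 without model 2). In SJQYD against model 1 of 16 was above 0, and Itgam (−1.41, adjusted p = 0.0138) and C1qa (−0.61, adjusted p = 0.0489) were called lower. Both calls were lost without the 3 libraries rich in parotid transcripts (Itgam −1.32, adjusted p = 0.0542, and C1qa −0.52, adjusted p = 0.19). That of C1qa held in 3 of 15 fits without 1 library, those without control 2, control 5 or SJQYD 5, and the adjusted p was 0.0524 to 0.136 when 1 of the other 12 was left out. Against control glands, SJQYD glands had Mertk called higher (1.26, adjusted p = 0.0149) and Itgam called lower (−1.10, adjusted p = 0.0221; 0.0516 to 0.0693 without SJQYD 1, 2 or 4 or control 3 or 5). Per 100 CPM of these markers, Tlr7 was at 0.533 to 1.04 CPM in SJQYD, 0.609 to 1.11 in model and 0.196 to 0.66 in control libraries. Casp1 was at 1.41 to 3.12 in SJQYD, 1.49 to 3.14 in model and 1.01 to 1.95 in control libraries. Casp4 was at 0.947 to 3.4 in SJQYD, 1.09 to 2.09 in model and 0.58 to 1.46 in control libraries. These model and control ranges overlapped for all 3 genes. The median was 0.79 in model and 0.38 in control libraries for Tlr7, 2.1 in model and 1.3 in control for Casp1, and 1.47 in model and 0.738 in control for Casp4.

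**Figure D4:**
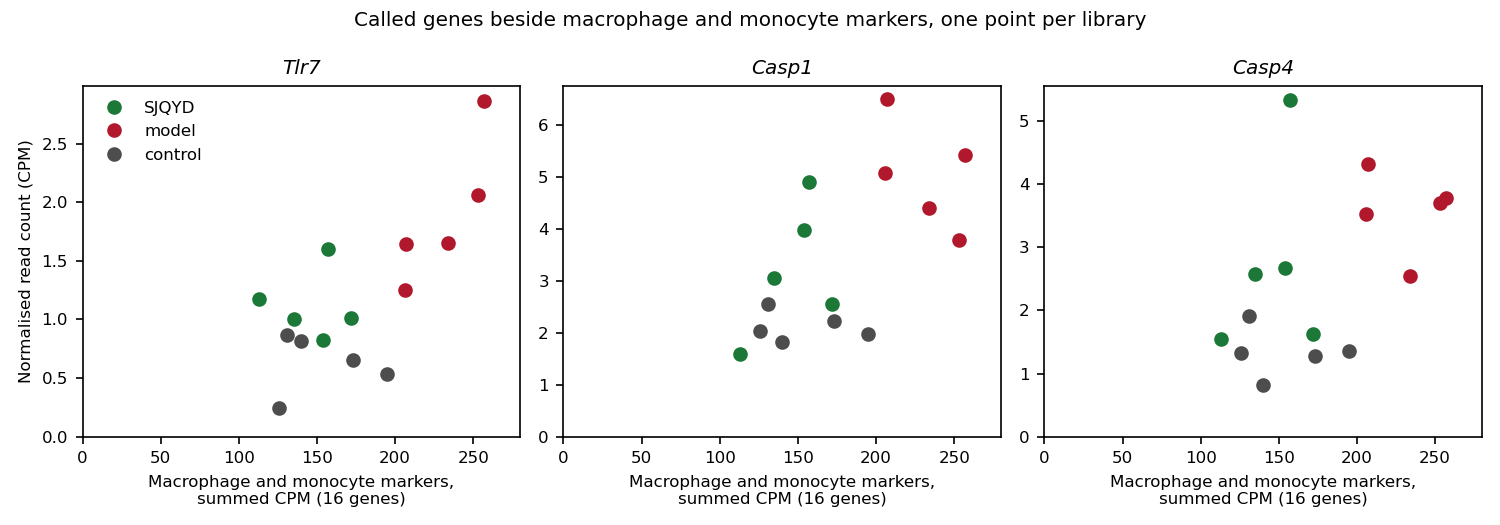
Normalised read count (CPM, vertical axes) of Tlr7, Casp1 and Casp4 against the summed CPM of 16 macrophage and monocyte markers (horizontal axes), 1 point per library, SJQYD in green, model in red and control in grey. The 5 model libraries sit at 206 to 257 summed CPM, to the right of all SJQYD (113 to 172) and control (126 to 195) libraries.

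Other cell types moved in part with the same groups. The 10 neutrophil markers summed to 0.755 to 1.65 CPM in SJQYD, 1.82 to 3.03 in model and 0.468 to 1.51 in control libraries. Their defining granule genes were near 0, with S100a8 averaging 0.0689 CPM in SJQYD, 0.0748 in model and 0.015 in control glands. Most of the neutrophil sum came from Csf3r, which averaged 0.798 CPM in SJQYD, 1.78 in model and 0.815 in control glands. Only 2 of the 10 neutrophil markers passed the filter on low counts, and neither was called. B cell markers, 11 genes, summed to 14.2 to 66.1 CPM in SJQYD, 47.5 to 110 in model and 0.394 to 99.6 in control libraries. Plasmacytoid dendritic cell markers, 7 genes of a cell known for Tlr7 and Tlr9, summed to 59.0 to 112 CPM in SJQYD, 60.6 to 104 in model and 36.4 to 65.7 in control libraries. Pacsin1 weighed on the SJQYD sums, with a mean of 31.4 CPM in SJQYD, 4.98 in model and 6.43 in control glands and up to 7107 counts in a SJQYD library. In SJQYD against model 2 of the 7 were above 0, with a median of −0.54 and none called. Siglech averaged 0.904 CPM in SJQYD, 1.17 in model and 0.371 in control glands. Conventional dendritic cell markers, 9 genes, summed to 8.04 to 23.0 CPM in SJQYD, 9.77 to 34.9 in model and 5.76 to 15.1 in control libraries. T cell markers, 11 genes, summed to 7.72 to 103 CPM in SJQYD, 20.6 to 170 in model and 4.56 to 78.1 in control libraries. Of these, Batf3 of the conventional dendritic list was called, at 1.95 in model against control (adjusted p = 0.00838) and 1.34 in SJQYD against control (adjusted p = 0.0269; 0.0536 to 0.063 without SJQYD 2 or 3 or control 3 or 4). Natural killer cell markers, 8 genes, summed to 3.84 to 9.64 CPM in SJQYD, 9.6 to 17.9 in model and 4.73 to 11.3 in control libraries, and Nkg7 was called in model against control (1.36, adjusted p = 0.0409; 0.0505 to 0.098 without SJQYD 2 or 5, model 1, 2, 3 or 5 or control 1, 3 or 4, and 0.0608 without the parotid-rich libraries). Model and control ranges did not overlap for the macrophage and neutrophil sums and overlapped for the other 5. For the B cell, T cell and plasmacytoid sums the overlap came from control 2 alone, at 99.6, 78.1 and 65.7 CPM. The highest of the other control libraries were 16.3, 14.1 and 54.4 CPM. In model against control all 11 B cell and all 11 T cell markers were above 0, with medians of 1.54 and 1.95 and none called. The macrophage and monocyte median was 0.51.

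Markers of other tissues also differed between the groups. Skeletal muscle markers summed to 21.3 to 38.8 CPM in SJQYD, 22.1 to 38.4 in model and 11.2 to 22.4 in control libraries. Of 6 tested, 3 (Tnnt3, Ryr1 and Eno3) were called higher in model against control, where 2.57% of all genes were. The same 3 were called higher in SJQYD against control, where 5.22% of all genes were. Tnnt3 averaged 0.249 CPM in SJQYD and 0.305 in model glands and had 0 counts in every control library, and its calls held without any 1 library. Eno3, the largest part of the sum, averaged 24.2 CPM in SJQYD, 24.2 in model and 13.2 in control glands. Ckm averaged 2.72, 2.45 and 2.56 CPM in SJQYD, model and control glands, and Mylpf 0.422, 0.551 and 0.511. Acta1 went with the called genes at 0.199, 0.176 and 0.0413 CPM, and Myh2 and Myh4 averaged 0.0358 to 0.0784 CPM. More muscle in the NOD glands was not tested. The model against control calls of Ryr1 and Eno3 held in 6 and 4 of 15 fits without 1 library, with adjusted p up to 0.0852 and 0.119, and those of SJQYD against control in 13 and 9. Without the parotid-rich libraries Ryr1 was not called in model (edgeR, adjusted p = 0.0769) or SJQYD against control (0.0556). Erythrocyte markers summed to 162 to 400 CPM in SJQYD, 261 to 360 in model and 73.9 to 290.0 in control libraries, and Hba-a2, a globin gene, was called in model against control (1.69, adjusted p = 0.0361), in 7 of 15 such fits. Of 8 submandibular acinus markers Bhlha15, a transcription factor of secretory cells, was called lower in model against control (−0.57, adjusted p = 0.032), in 8 of 15 such fits, and was at −0.06 on library totals. The fibroblast marker Lum (−0.78, adjusted p = 0.00582) and the basal duct marker Trp63 (−0.51, adjusted p = 0.0345) were called lower in SJQYD against control, Lum in all 15 such fits and Trp63 in 8, and Trp63 was at 0.08 on library totals. Adipocyte markers summed to 13.5 to 182 CPM in SJQYD, 13.7 to 254 in model and 7.56 to 25.5 in control libraries, highest in SJQYD 5 and model 2. All 5 tested adipocyte markers were above 0 in model (median 3.29) and SJQYD (median 2.84) against control, and none was called. Of 8 granular duct markers 1 was above 0 in each of these comparisons, with medians of −0.66 and −0.68 and none called. The part of these cells in the differences of Tlr7, Casp1 and Casp4 was not tested.

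Genes with the most similar profile were taken as those with the smallest root mean square difference of mean-centred log2 CPM over the 15 libraries. For Casp4 the nearest was Casp1, at 0.32 against a spread of 0.74 of Casp4 itself, followed by Junos and H2-Q4 at 0.34 each. For Casp1 they were Rasa4 at 0.21, Pirb at 0.27 and Lrwd1 at 0.3, against a spread of 0.62. For Tlr7 they were Mndal and Ifit1 at 0.39 each and Bcl2 at 0.42, against a spread of 0.8. For Il18 they were Lmtk3, Rhno1 and Gsap at 0.35 to 0.37, against 0.73. For Tlr3 they were Ncoa4, Mfap1a and Hsbp1 at 0.11 each, against 0.2, for Tlr2 Fam129a, Slc37a1 and Agfg2 at 0.29 to 0.3, against 0.51, and for Tlr4 Fam149a, Socs6 and Id2 at 0.21 to 0.24, against 0.35. Xcl1 at 0.55 was nearest to Nlrp3 (1.12) and Art4 at 0.35 to Il1b (0.57), both at low counts.

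Of the tested genes next to Tlr7, Casp1 and Casp4, none was called in model against control apart from the caspase pair itself. Next to Tlr7, Prps2 lies 15.8 kb away and stood at −0.54 ± 0.15 in model against control (adjusted p = 0.0516), opposite in sign to Tlr7, and fell by 0.72 in SJQYD against control (SE 0.15, adjusted p = 0.00751). Tmsb4x, 95.6 kb on the other side, was at 0.17 ± 0.16 in model against control (adjusted p = 0.598). Next to Tlr9, Alas1, the first enzyme of heme synthesis, lies 6.6 kb away and rose by 0.97 ± 0.15 in SJQYD against model (adjusted p = 0.0023), while Tlr9 itself was at 0 in all 10 of these libraries.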

How the data were processed

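Per the labels' protocols, polyadenylated RNA from a Trizol extraction went into dUTP-marked, and so stranded, libraries whose adapters held molecular identifiers, read as pairs. Per the submitters' processing notes, edgeR, DESeq2, UMI-tools, StringTie 1.3.4d, HISAT2 2.0.4 and cutadapt 1.9 were used, with no role for each, and the build was mm9. Of 32385 matched genes in the deposited table, 28337 (87.5%) have the coordinates of GENCODE M21 on GRCm38, so coordinates are given as in the table and read as GRCm38. The authors deposited whole-number counts for 55401 genes and FPKM values (per gene length and library size) for the 32479 with a count. Small counts pile up at 4 (14040 values, against 8483 of 3 and 4460 of 5), so a count may not be a molecule, and floors of 3 counts cover counting error only. The labels do not say that samples came from separate cages or batches, so p-values measure the spread between these samples. No 2 libraries of a group agreed within sampling noise (chi-square of at least 75.7 per gene).

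Counts were analysed in R 4.3.3 with edgeR 4.0.16: filtering by group left 18136 genes, TMM factors ran from 0.594 to 1.85, and a robust quasi-likelihood fit with 1 mean per group over all 15 libraries gave the F tests, adjusted by Benjamini-Hochberg over all genes tested. SE is the log2 fold change divided by the square root of F, and means carry SDs. On simulated data with 200 changed genes, of which 190 passed the filter for model against control and 194 for each of the others, model against control gave back 33% of the 2-fold and 77% of the 4-fold changes (17625 genes, 3 false of 108 calls), SJQYD against model 41% and 80% (17587 genes, 4 of 121) and SJQYD against control 33% and 77% (17587 genes, 3 of 110).

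The 10 genes, the related lists and the marker lists were chosen with earlier results of these data known. Named genes were all 10, up to 4 called genes with the smallest p in each related list, the 3 most similar profiles and the nearest tested gene on each side. Outside this rule, the related genes Tlr1, Myd88, Pycard, Gsdmd and Aim2, none of them called, and single genes of the marker lists were also named. Alternatives were other scalings and filters, DESeq2 1.42.0, voom and FPKM fits in limma 3.58.1 with pseudocounts of 1 or 0.1 (12436 genes that reached 0.5 FPKM in 5 libraries, or the whole table), a fit of 2 groups, omission of each library and a replicate block. A fit without the 3 libraries rich in parotid transcripts was added after seeing the data.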

Additional observations from a re-analysis of the deposited data

Results flagged for a closer look

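Of 28 groups of 5 libraries examined for the tested genes and Tlr9, 2 held a library apart from the rest by Dixon's criterion of 0.71 (gap to the nearest library over the range), where chance gives about 1 in 20. Tlr2 was at 6.53 CPM in model 4, against 2.76 to 3.55 CPM in the other model libraries, a gap of 0.79 of the range. Tlr9 was at 0.131 CPM in control 4, from 7 counts, and at 0 in the other control libraries, so that the gap was the whole range; with 4 libraries at 0 any value above 0 meets the criterion, and this says nothing beyond the 7 counts.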

How the results depend on the processing

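In model against control the count of 3 stood under every other setting run except limma on log2(FPKM + 1) over all genes, which lost Tlr7, and was 2 to 3 without 1 library. In the 2 FPKM fits of genes with at least 0.5 FPKM, Tlr7 was not tested and Il18 was called beside Casp1 and Casp4. In SJQYD against model 0 were called under every setting. In SJQYD against control the count of 1 became 3 on library totals, 3 on log2(FPKM + 1), 3 on log2(FPKM + 0.1), 2 without the 3 libraries rich in parotid transcripts, and 0 with voom, with log2(FPKM + 1) over all genes and with only the 2 groups compared, and was 0 to 2 without 1 library. DESeq2 gave no adjusted p for some low genes.

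Related genes called in model against control were 9, and became 20 on library totals, 15 with DESeq2, 17 and 20 on log2(FPKM + 1) and log2(FPKM + 0.1), 17 without the parotid-rich libraries and 3 to 19 without 1 library. In SJQYD against model 4 became 0 on library totals and in all 3 FPKM fits, 12 with DESeq2, 8 with voom, 1 without the parotid-rich libraries and 1 to 5 without 1 library. In SJQYD against control 6 became 18 on library totals, 3 without a filter, 11 with DESeq2, 14 and 18 on log2(FPKM + 1) and log2(FPKM + 0.1), and 2 to 10 without 1 library. Library totals moved the median of all genes to 0.52, 0.08 and 0.63 in the 3 comparisons; the cause of the other changes was not tested.

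Signs turned for genes of the group that were not called, and for 2 called genes in SJQYD against control, Nek7 and the basal duct marker Trp63 (−0.51 on TMM-scaled counts). In model against control, library totals gave 0.28 for Tlr3, 0.26 for Tlr4 and 0.41 for Il1b; log2(FPKM + 1), log2(FPKM + 0.1) and log2(FPKM + 1) over all genes gave 0.16, 0.25 and 0.16 for Tlr3, and the last gave 0.06 for Tlr4 and 0.04 for Il1b. In SJQYD against control, library totals gave 0.24 for Tlr3, 0.37 for Tlr4, 0.35 for Il1b, 0.20 for Nek7 and 0.08 for Trp63; the FPKM fits gave 0.13, 0.20 and 0.13 for Tlr3, 0.09, 0.14 and 0.09 for Nek7, 0.02, 0.05 and 0.02 for Trp63, and over all genes 0.08 for Tlr4 and 0.03 for Il1b. In SJQYD against model, library totals gave 0.06 for Tlr2 and the fit without parotid-rich libraries 0.30 for Nlrp3. Without 1 library, Il1b ran from −0.61 to 0.09 in model against control, −0.31 to 0.38 in SJQYD against model and −0.45 to 0.01 in SJQYD against control, Nlrp3 from −0.45 to 0.31 in SJQYD against model and −0.13 to 0.66 in SJQYD against control, and Tlr2 from −0.27 to 0.14 in SJQYD against model.

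Replicate numbers did not pair the samples: correlations of same-numbered deviations were −0.23 to 0.16, and 1 of 5 samples per comparison correlated best with its own number. With the replicate block, 3 of the 10 genes and 10 related genes were called in model against control, 0 and 5 in SJQYD against model and 1 and 5 in SJQYD against control, and Il1b turned to 0.02 in SJQYD against model. Low counts limit Nlrp3, Il1b and Tlr9.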
